A study of Solanum lycopersicum with 18 samples.

Results

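Criollo is a tomato (Solanum lycopersicum) cultivar with small fruit, and its seeds were primed for 48 h with or without methyl jasmonate (MeJA), the methyl ester of the defence hormone jasmonic acid. The comparison set the 3 libraries of MeJA-primed Criollo seeds against the 3 libraries of mock-primed Criollo seeds, which are 6 of the 18 RNA-seq libraries of the series. The other 12 came from the cultivars Stupicke and Micro-Tom treated in the same ways. MeJA-primed seeds imbibed PEG 8000 at -1 MPa with 2 mM MeJA, and mock-primed seeds the same PEG solution with water in place of MeJA. Both groups therefore carried the osmotic treatment, the darkness at 20°C, the washing and the redrying for 48 h at 43% relative humidity, so the comparison holds the effect of MeJA on seeds already primed and says nothing of priming itself. Each library was made from 1 biological replicate of 30 whole seeds. In such bulk RNA, fewer cells of a type and less RNA per cell cannot be told apart. The study asked which defences of the seed MeJA elicits.

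Jasmonates are plant hormones released on wounding and on attack by insects and necrotrophic pathogens. The active conjugate, jasmonoyl-isoleucine, binds a receptor made of the F-box protein COI1 and a JAZ repressor, the JAZ protein is degraded, and the MYC2 class of bHLH transcription factors is freed to act on jasmonate target genes. Among these targets are the JAZ genes and the jasmonate biosynthesis genes themselves, and in tomato the proteinase inhibitors that impair digestion in insects. In many plant tissues jasmonates also restrain growth and cell division.

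The Criollo libraries held 19982933 to 20484187 estimated reads each, within the 18807673 to 20560261 of all 18 libraries. Seed transcripts were abundant in all 6 libraries. Transcripts annotated as late embryogenesis abundant (LEA) proteins, which protect dry seeds, summed to 28464 to 66625 TPM, oleosins, which coat oil bodies, to 3218 to 7932 TPM and vicilins, which are storage proteins, to 1404 to 5315 TPM. The only annotated 11S globulin stood at 3.09 to 6.76 TPM. The few transcripts of green tissue that carry a name were scarce. The 2 chlorophyll a-b binding proteins summed to 2.05 to 8.36 TPM, and 1 gene of the large subunit of Rubisco stood at 0.308 to 0.934 TPM. Genes of green tissue without a name were not summed, so the level of such transcripts as a whole is not known. Both kinds of marker moved with the treatment, as given with the seed proteins and the photosystem genes. MeJA replicate 2 had the highest sums of LEA, oleosin and vicilin transcripts, and mock replicate 2 the lowest.

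MeJA raised 635 genes and lowered 242 genes of the 19914 tested in Criollo seeds, by edgeR's quasi-likelihood test at a Benjamini-Hochberg adjusted p of 0.05. These are 3.19% and 1.22% of the genes tested, whose log2 fold changes had a median of 0.01. The median log2 fold change was 1.10 among the raised and -1.28 among the lowered genes. Counting genes without reads in a group at their bound, 22.8% of the raised genes (145) rose by at least 2 on the log2 scale and 25.6% of the lowered genes (62) fell by at least 2, while 30 raised genes and no lowered gene changed by at least 5. The raised genes were the more abundant. The raised genes had a median level of 16.1 TPM over the 6 libraries, the lowered genes 2.96 TPM and all genes tested 13.5 TPM. Together the raised genes made up 8.58, 10.5 and 8.30% of all TPM in the MeJA libraries, against 4.73, 4.24 and 4.57% in the mock libraries. The lowered genes made up 0.151, 0.127 and 0.168% in the MeJA libraries and 0.280, 0.337 and 0.260% in the mock libraries. Both sets were chosen by their difference in these same libraries, so the separation of their sums follows from the choice. The levels of the 3 MeJA and the 3 mock libraries did not overlap for 632 of the raised and 241 of the lowered genes, where 16.3% of all genes tested lay wholly above and 16.3% wholly below. How many genes were called depended on single libraries. Without MeJA replicate 2 the calls numbered 338 raised and 33 lowered, and without mock replicate 2 they numbered 328 and 33. Leaving out MeJA replicate 1 gave 467 and 55, mock replicate 1 gave 377 and 69, and mock replicate 3 gave 416 and 178. Libraries of the other cultivars, which enter the same fit, counted too. Without Micro-Tom mock replicate 3 the calls numbered 1157 and 655, and the lowered calls numbered 464 without Stupicke mock replicate 3 and 159 without Stupicke mock replicate 2. The balance of the directions also moved, with 72.4% of the calls on the raised side, 55.4% (997 raised and 804 lowered) when the spread was estimated from the Criollo libraries alone, and 47.0% (408 and 461) by limma on log2(TPM + 1), a scale on which the median of all genes stood at -0.12. No gene called raised or lowered changed direction under any of these settings, and 289 raised and 21 lowered genes were called whichever Criollo library was left out.

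**Figure D1:**
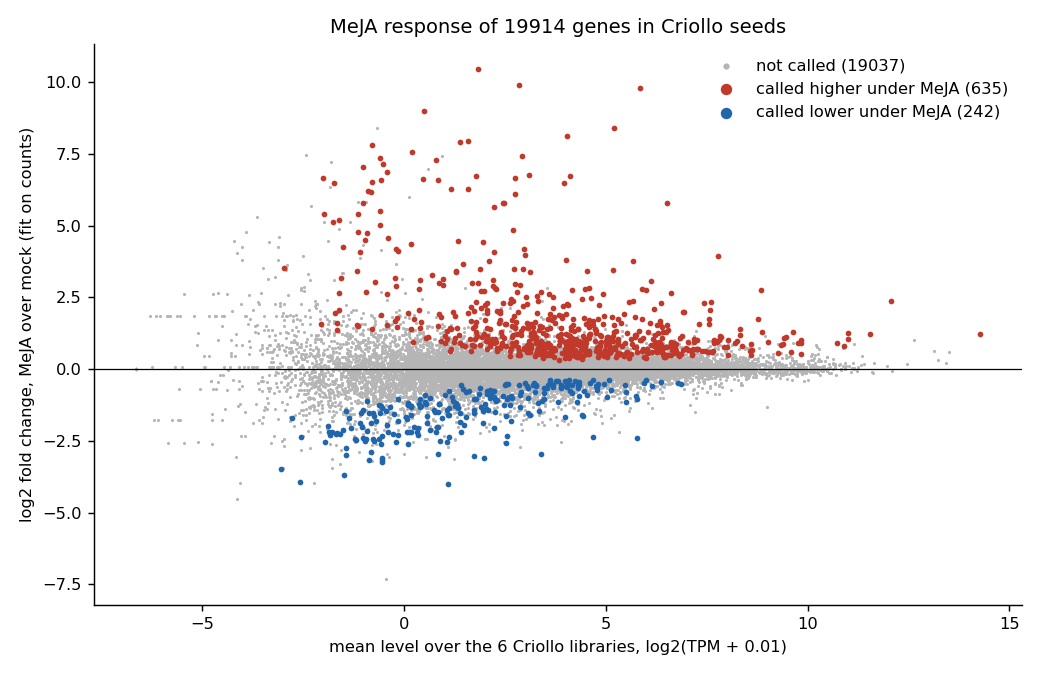
Response of the 19914 genes tested in Criollo seeds, with the mean level over the 6 libraries on the horizontal axis as log2(TPM + 0.01) and the log2 fold change of MeJA over mock, fitted on counts, on the vertical axis. Each point is a gene, red where called higher (635), blue where called lower (242) and grey otherwise; among called genes the largest fitted changes are those of raised genes, many of them with no or few mock reads, and most lowered genes lie at low levels.

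The genes named hereafter were taken by rule from the largest changes, the most abundant changed genes and lists of genes sharing an annotation, and those named outside that rule, among them every member given as not passing the test, were chosen after their values were seen. The largest changes were taken only among genes whose groups did not overlap. A lack of overlap given for a named gene describes its values and is no separate evidence. Names and roles come from the annotation that the study published for genes it called or detected, so 2634 of the genes tested carry a name and 30.6% of these were called, against 4.4% of all genes tested. A high share of calls in a list of named genes is therefore partly fixed by how the names came about, and it is no independent evidence of a direction. The counts of each list are to be read beside these 30.6%. Of all genes tested 3.19% were raised and 1.22% lowered.

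Several of the genes that MeJA raised most had no or nearly no reads in mock-primed seeds. Solyc08g076970, annotated as acetylornithine deacetylase, an enzyme of arginine and ornithine metabolism, had 6.3, 8.09 and 6.81 TPM under MeJA, against 0, 0 and 0 TPM under mock (at least 189-fold higher, adjusted p = 7e-06). Solyc07g064600, of the L-PSP family of endoribonucleases, had 5.86, 31.7 and 5.47 TPM under MeJA, against 0, 0 and 0 TPM under mock (at least 128-fold higher, adjusted p = 0.015). The neighbouring genes Solyc07g006560, a hypersensitive response assisting protein, and Solyc07g006570, an S-like ribonuclease, rose together. Solyc07g006560 had 19.4, 7.6 and 18.3 TPM under MeJA and 0.125, 0 and 0.127 TPM under mock (207-fold higher, 95% counting interval 57 to 1719, adjusted p = 3.5e-05). Solyc07g006570 had 10.5, 2.44 and 7.35 TPM under MeJA and 0, 0.0882 and 0.0864 TPM under mock (128-fold higher, 95% counting interval 35 to 1063, adjusted p = 0.00058). For all 4 genes every MeJA library lay above every mock library, which the rule for the largest changes required. For Solyc07g064600 MeJA replicate 2 was more than 5 times as high as both other MeJA libraries. Among pectinesterases, which remove methyl groups from wall pectin, Solyc02g080200 had 37.8, 21 and 38.6 TPM under MeJA, against 0.217, 0.12 and 0.0345 TPM under mock (log2 fold change 8.13 ± 0.39 SE, adjusted p = 3.8e-09). Its neighbour Solyc02g080220 had 14.9, 8.49 and 16 TPM under MeJA, against 0.21, 0.263 and 0.151 TPM under mock (log2 fold change 6.09 ± 0.32 SE, adjusted p = 7.8e-09). An ABC transporter of the C family, Solyc12g044820, had 14.7, 11.2 and 13.7 TPM under MeJA and 0.145, 0.142 and 0.143 TPM under mock (log2 fold change 6.66 ± 0.29 SE, adjusted p = 2.9e-09). The exocyst subunit SEC10 Solyc11g050710, part of the complex that tethers secretory vesicles, had 2.98, 1.03 and 4.08 TPM under MeJA and 0.0266, 0.0522 and 0 TPM under mock (114-fold higher, 95% counting interval 38.8 to 558, adjusted p = 0.00027). None of these genes reached 1 TPM in any mock library.

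The most abundant raised transcript encoded an 11 kDa LEA protein, Solyc10g078770, with 24576, 33772 and 22670.5 TPM under MeJA, against 13722, 11849 and 12719 TPM under mock (log2 fold change 1.22 ± 0.29 SE, adjusted p = 0.025). After it came Solyc07g043420, annotated as 2-oxoglutarate-dependent dioxygenase 2, with 7686, 5245 and 8171 TPM under MeJA, against 1474, 1565 and 1507 TPM under mock (log2 fold change 2.37 ± 0.19 SE, adjusted p = 9.9e-07), a larger change. Solyc09g090970, a pathogenesis-related protein of the STH-2 type, had 3175, 4239 and 4594 TPM under MeJA, against 1982, 1832 and 2052 TPM under mock (log2 fold change 1.22 ± 0.24 SE, adjusted p = 0.007). In each of the 3 genes the groups did not overlap. Of the raised genes 81 had a mean of at least 100 TPM. Of the lowered genes only 2 did. The GDSL esterase or lipase Solyc03g121180 averaged 90.4 ± 17.1 TPM under MeJA and 143 ± 20.0 TPM under mock (SD, n = 3 each, log2 fold change -0.50 ± 0.12 SE, adjusted p = 0.029). Solyc09g014230, of the major facilitator superfamily of transporters, averaged 86.1 ± 14.6 TPM under MeJA and 136 ± 16.1 TPM under mock (log2 fold change -0.49 ± 0.13 SE, adjusted p = 0.038).

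All 8 annotated members of the jasmonate ZIM-domain (JAZ) and TIFY group rose, where 3.19% of all genes tested were raised and 30.6% of named genes called. The study had itself called all 8 in Criollo, and JAZ genes that it neither called nor detected carry no name here. The share is therefore fixed by the naming and is no independent evidence of a direction. The 8 genes had a median log2 fold change of 5.53, or 3.45 when the members without mock reads were set at their bound. JAZ proteins repress MYC factors and are themselves made in response to jasmonate. The most abundant was JAZ3 (Solyc07g042170), with 310.5, 333 and 319 TPM under MeJA, against 67.2, 83 and 60.3 TPM under mock (log2 fold change 2.35 ± 0.25 SE, adjusted p = 1.9e-05). JAZ1 (Solyc12g009220) had 9.99, 23.2 and 17.8 TPM under MeJA, against 0.121, 0 and 0.354 TPM under mock (log2 fold change 6.76 ± 0.55 SE, adjusted p = 1.3e-06). TIFY 10A (Solyc03g122190) had 35.3, 41.6 and 25 TPM under MeJA, against 0.414, 0.548 and 0.0885 TPM under mock (log2 fold change 6.73 ± 0.31 SE, adjusted p = 3.6e-09). The 2 genes annotated as JAZ f, Solyc08g036640 and Solyc08g036660, lie close together. Solyc08g036640 had 8.67, 12.2 and 6.86 TPM under MeJA and 0.187, 0.178 and 0.182 TPM under mock (56.2-fold higher, 95% counting interval 18.9 to 275, adjusted p = 3e-05). Solyc08g036660 had 3.74, 4.36 and 2.23 TPM under MeJA and 0, 0 and 0 TPM under mock (at least 21-fold higher, adjusted p = 0.0062). JAZ2 (Solyc01g005440) averaged 78.1 ± 16.9 TPM under MeJA and 17.1 ± 1.83 TPM under mock, and JAZ e (Solyc03g118540) 119.7 ± 9.8 TPM under MeJA and 41.6 ± 2.81 TPM under mock (SD, n = 3 each). JAZ2, JAZ3 and JAZ e, already well expressed under mock, thus had log2 fold changes of 2.34, 2.35 and 1.67, and the JAZ and TIFY genes under 1 TPM in every mock library rose by more. The scarcest of the group was Solyc12g049400, named Tify, with 0.278, 0.555 and 0.626 TPM under MeJA, against 0, 0 and 0 TPM under mock (at least 5.69-fold higher, adjusted p = 0.016). Of the 8 calls, 7 were made whichever Criollo library was left out.

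Both genes annotated as transcription factor MYC2, the main activator of jasmonate responses, rose. Solyc08g005050 had 10.1, 11.3 and 7.52 TPM under MeJA, against 3.76, 2.68 and 3.15 TPM under mock (log2 fold change 1.73 ± 0.22 SE, adjusted p = 0.00016). Solyc01g096370 had 4.05, 4.84 and 4.2 TPM under MeJA, against 0.362, 0.459 and 0.546 TPM under mock (log2 fold change 3.39 ± 0.38 SE, adjusted p = 4.1e-05). The level of the second was lower than that of the first in each MeJA library, while its change was the larger. Of the 24 annotated MYC2 and bHLH factors, 9 rose and 2 fell, with a median log2 fold change of 0.53. The raised ones included both genes annotated as bHLH13, a type that represses jasmonate responses in Arabidopsis, Solyc01g096050 (log2 fold change 1.59 ± 0.15 SE, adjusted p = 8.4e-06) and Solyc05g050560 (log2 fold change 0.58 ± 0.15 SE, adjusted p = 0.035). The factor bHLH 076, Solyc01g086870, had 51.9, 70.3 and 55.3 TPM under MeJA, against 21.9, 19 and 17.8 TPM under mock (log2 fold change 1.75 ± 0.16 SE, adjusted p = 4.6e-06). The lowered ones were Solyc11g010620 (log2 fold change -2.36 ± 0.49 SE, adjusted p = 0.011) and bHLH 072, Solyc12g098620 (log2 fold change -1.03 ± 0.23 SE, adjusted p = 0.017), and neither was called without MeJA replicate 2 or without mock replicate 2. The summed level of the whole family did not separate the groups, at 930.1, 862 and 961 TPM under MeJA and 952, 928 and 924 TPM under mock.

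The enzymes that make jasmonic acid rose at each of the 4 steps named here. Genes that the study neither called nor detected carry no name, so a step or gene copy without a response could be missing. Lipoxygenase D (Solyc03g122340), which oxygenates linolenic acid at the head of the pathway, had 52.8, 65.2 and 40.9 TPM under MeJA, against 23, 19.4 and 26.6 TPM under mock (log2 fold change 1.34 ± 0.20 SE, adjusted p = 0.00053). Allene oxide synthase (Solyc04g079730), which commits the product to the pathway, had 7.52, 7.66 and 11 TPM under MeJA, against 0.495, 0.739 and 0.442 TPM under mock (log2 fold change 4.10 ± 0.32 SE, adjusted p = 9.1e-07). Allene oxide cyclase (Solyc02g085730), which closes the ring, had 114, 126 and 119 TPM under MeJA, against 45.2, 45.5 and 52.5 TPM under mock (log2 fold change 1.47 ± 0.18 SE, adjusted p = 0.00011). OPDA reductase 3 (Solyc07g007870), the last enzyme before the side chain is shortened, had 32.7, 40.8 and 38.4 TPM under MeJA, against 12.7, 13.4 and 16.6 TPM under mock (log2 fold change 1.54 ± 0.19 SE, adjusted p = 0.00013). For all 4 enzymes the groups did not overlap, and allene oxide synthase, the scarcest under mock, changed most. A related enzyme rose as well, the cytochrome P450 CYP74C3 (Solyc10g007960), with 309.8, 267 and 325 TPM under MeJA and 72.9, 79.4 and 92.4 TPM under mock (log2 fold change 2.05 ± 0.20 SE, adjusted p = 9.3e-06). A further lipoxygenase, Solyc05g014790, had 20.4, 24.5 and 17.1 TPM under MeJA and 5.27, 5.14 and 5.3 TPM under mock (log2 fold change 2.13 ± 0.20 SE, adjusted p = 6.5e-06). In the whole list of lipoxygenases, CYP74 enzymes and jasmonate synthesis, 6 of 8 members rose and none fell, with a median log2 fold change of 1.51, and all 6 calls were made whichever Criollo library was left out. The 2 that did not pass, the lipoxygenases Solyc01g099150 and Solyc01g099160, stood at 1.65 ± 0.403 TPM under MeJA and 0.935 ± 0.355 TPM under mock and at 0.613 ± 0.197 TPM under MeJA and 0.439 ± 0.176 TPM under mock (SD, n = 3 each).

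Enzymes that join amino acids to hormones or release them again formed another raised group. In Arabidopsis, hydrolases of the ILR1 type release amino acids from conjugates of auxin and of jasmonate. Solyc05g006220, IAA-amino acid hydrolase ILR1-like 1, had 3.35, 3.03 and 2.05 TPM under MeJA, against 0, 0 and 0 TPM under mock (at least 68.6-fold higher, adjusted p = 6.5e-05). Solyc10g079640, ILR1-like 6, had 2.08, 2.19 and 2.09 TPM under MeJA, against 0.149, 0.11 and 0.0726 TPM under mock (log2 fold change 4.35 ± 0.44 SE, adjusted p = 1.3e-05). Of the 6 members of the list 4 rose and none fell, with a median log2 fold change of 0.86, and all 4 calls were made whichever Criollo library was left out. The auxin-conjugating enzyme IAA-amido synthetase 3-9 (Solyc07g063850) rose by 0.70 ± 0.13 SE on the log2 scale (adjusted p = 0.0037).

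Proteinase inhibitors block the digestive enzymes of insects. Of 9 annotated members 6 rose and none fell, with a median log2 fold change of 5.82, or 2.90 with members lacking mock reads at their bound, and 5 of the 6 calls were made whichever Criollo library was left out. The study had itself called 6 of the 9 in Criollo, so the share is no independent evidence. The 2 most abundant type II inhibitors were nearly silent in mock-primed seeds. Solyc03g098795 had 72.1, 65.6 and 82.2 TPM under MeJA, against 0.192, 0 and 0.478 TPM under mock (log2 fold change 8.42 ± 0.44 SE, adjusted p = 7.8e-09). Solyc03g020050, annotated as the viroid-inducible inhibitor II, had 118, 99.5 and 126 TPM under MeJA, against 0.127, 0.252 and 0 TPM under mock (1014-fold higher, 95% counting interval 347 to 4921, adjusted p = 3.4e-08). Solyc03g020060 beside it on chromosome 3 had 0.992, 0.831 and 2.29 TPM under MeJA and 0, 0 and 0 TPM under mock (at least 19.6-fold higher, adjusted p = 0.0086). In the 3 genes the lowest MeJA library exceeded the highest mock library. A carboxypeptidase inhibitor, Solyc07g007250, had 6.44, 8.7 and 2.86 TPM under MeJA and 0, 0 and 0 TPM under mock (at least 33.1-fold higher, adjusted p = 0.018). The cysteine proteinase inhibitor Solyc12g098607 was already present under mock and had 93.7, 168 and 94.5 TPM under MeJA and 51, 38.9 and 42.9 TPM under mock (log2 fold change 1.58 ± 0.29 SE, adjusted p = 0.0041). Cystatin 9 (Solyc03g097270), the most abundant inhibitor under mock, stood at 220.3 ± 11.9 TPM under MeJA and 186 ± 18.1 TPM under mock (SD, n = 3 each) and did not pass the test (adjusted p = 0.21).

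A few further wound proteins of tomato were looked up after their values had been seen. Arginase 2 (Solyc01g091170), which breaks down arginine in the insect gut, had 0.661, 12.1 and 0.474 TPM under MeJA, against 0, 0.0714 and 0.109 TPM under mock (log2 fold change 6.28 ± 1.46 SE, adjusted p = 0.022). Its rise rested on MeJA replicate 2, which was more than 5 times as high as both other MeJA libraries. Threonine deaminase (Solyc09g008670), which acts on threonine, had 0.636, 2.91 and 0.402 TPM under MeJA, against 0, 0.0327 and 0 TPM under mock (133-fold higher, 95% counting interval 23.5 to 5307, adjusted p = 0.04). Polyphenol oxidase (Solyc08g074620), which oxidises phenolics to quinones, had 5.69, 5.47 and 3.14 TPM under MeJA, against 0.291, 0.128 and 0.287 TPM under mock (log2 fold change 4.47 ± 0.48 SE, adjusted p = 2.8e-05). All 3 stood under 0.5 TPM in every mock library and reached only a few TPM under MeJA, apart from the arginase in replicate 2.

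Proteins aimed at microbes moved less evenly. Of 21 chitinases, glucanases and other pathogenesis-related proteins, 6 rose and 1 fell, with a median log2 fold change of 0.58. The shares called here and among the defensins below lay near or under the 30.6% of all named genes. The count in this list rested on single libraries, with 1 raised member left without mock replicate 2. Leaving out mock replicate 1, mock replicate 3 or MeJA replicate 3 left 2, and leaving out MeJA replicate 1 or 2 left 3. Chitinase Solyc10g055800 had 78.9, 90.3 and 98.3 TPM under MeJA, against 24.4, 23.6 and 39.8 TPM under mock (log2 fold change 1.74 ± 0.34 SE, adjusted p = 0.0064). The acidic extracellular 26 kD chitinase Solyc02g082920 had 4.71, 26.5 and 85.4 TPM under MeJA, against 5.01, 3.11 and 10.4 TPM under mock (log2 fold change 2.80 ± 0.75 SE, adjusted p = 0.046). In the cluster Solyc08g080640 to Solyc08g080670, which encodes thaumatin-like proteins that include NP24, 3 of 4 genes rose, by 1.00 ± 0.24, 0.81 ± 0.22 and 1.55 ± 0.38 SE on the log2 scale, and none, or 1 without MeJA replicate 2, was called when a Criollo library was left out. The summed level of the 4 genes did not separate the groups, at 596, 425 and 779 TPM under MeJA and 441, 514 and 354 TPM under mock. The glucan endo-1,3-beta-glucosidase 1 Solyc02g080660 fell (log2 fold change -0.89 ± 0.24 SE, adjusted p = 0.043). Defensins, small cysteine-rich antimicrobial proteins, had 1 of 5 members called, Solyc07g007755, with 5.67, 3.51 and 4.85 TPM under MeJA, against 1.76, 0.793 and 1.34 TPM under mock (log2 fold change 1.95 ± 0.50 SE, adjusted p = 0.037), and this call was lost whichever Criollo library was left out, while 3 members were raised without Micro-Tom mock replicate 3. The 2 most abundant defensins, Solyc07g007710 (196 ± 41.1 TPM under MeJA and 96.6 ± 14.2 TPM under mock) and Solyc04g072470 (175 ± 45.6 TPM under MeJA and 106 ± 15 TPM under mock, SD, n = 3 each), did not pass, at adjusted p of 0.15 and 0.11.

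**Figure D2:**
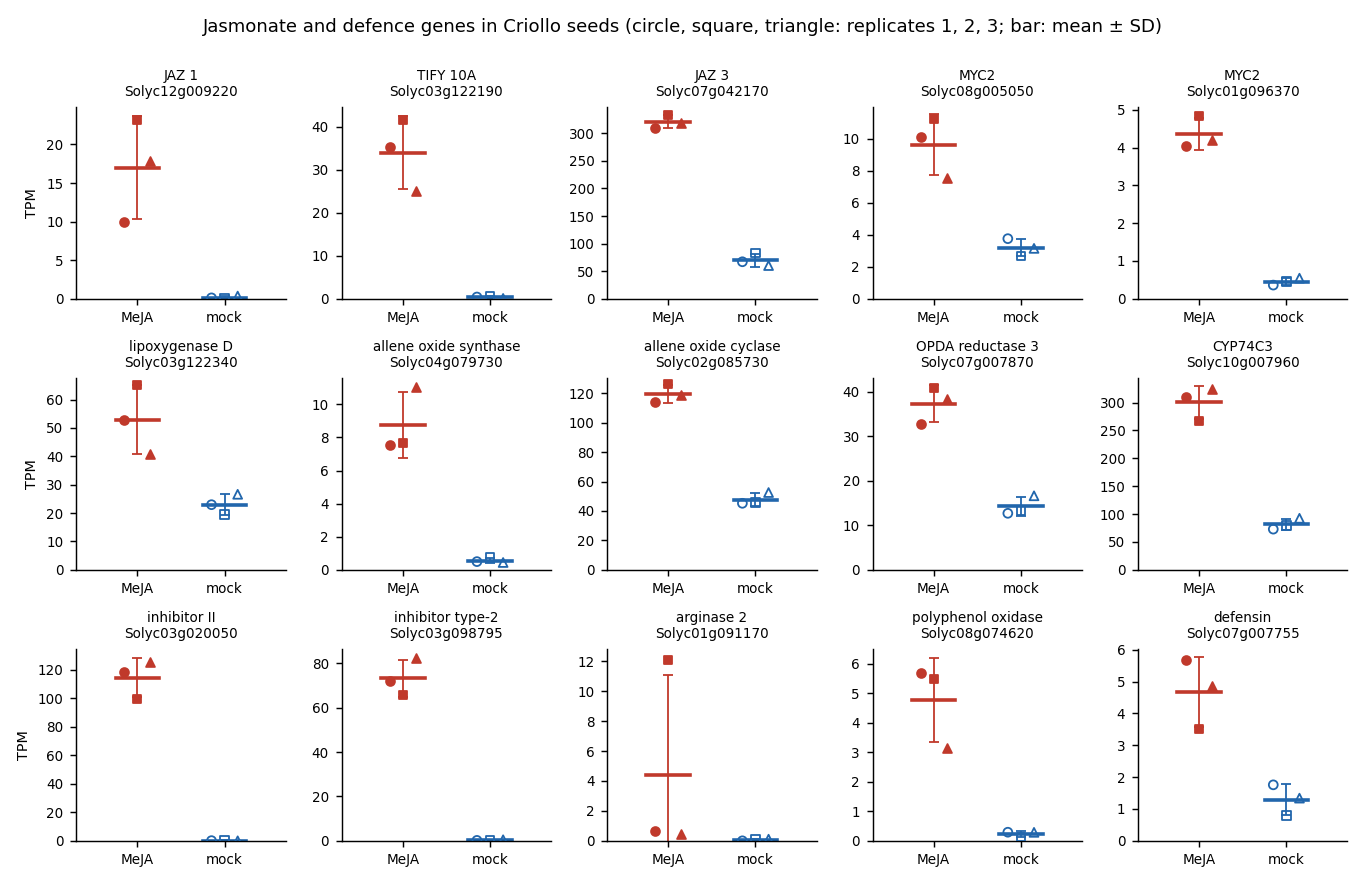
Levels in TPM, from a zero baseline, of 15 jasmonate and defence genes in the 3 MeJA-primed (left, filled) and 3 mock-primed (right, open) Criollo libraries, with the mean and SD as bars and replicates 1, 2 and 3 as circle, square and triangle. In every panel the MeJA libraries lie above the mock libraries. For arginase 2 (Solyc01g091170) replicate 2 stands alone at 12.1 TPM, and the lower SD bar is clipped at 0.

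Hormone receptors and signalling proteins were changed as well. Systemin receptor 2 (Solyc03g082450), a receptor kinase for the peptide that spreads the wound signal in tomato, had 8.3, 7.5 and 8.62 TPM under MeJA, against 1.33, 0.821 and 0.988 TPM under mock (log2 fold change 3.11 ± 0.17 SE, adjusted p = 1.6e-08). The ethylene receptor ETR5 (Solyc11g006180) and the gibberellin receptors Solyc06g008870 and Solyc09g074270 rose by less, by 0.69 ± 0.10, 1.10 ± 0.17 and 0.69 ± 0.15 SE on the log2 scale (adjusted p = 0.00044, 0.00075 and 0.013). Cytokinin oxidase 6 (Solyc12g008900), which degrades cytokinins, had 113, 118 and 98 TPM under MeJA, against 20.5, 19.8 and 14.7 TPM under mock (log2 fold change 2.76 ± 0.26 SE, adjusted p = 7.9e-06). The auxin-responsive gene SAUR61 (Solyc06g072650) had 15.4, 13.9 and 24.7 TPM under MeJA and 4.45, 2.3 and 2.45 TPM under mock (log2 fold change 2.69 ± 0.37 SE, adjusted p = 0.00035). These 6 genes were chosen after their values were seen, and the groups did not overlap in any of them. By the rule, 5 of 10 annotated MAP kinase kinase kinases rose and none fell, with a median log2 fold change of 0.64, led by number 21 (Solyc02g090970, 5.58 ± 2.4 TPM under MeJA and 0.774 ± 0.294 TPM under mock, SD, n = 3 each, log2 fold change 2.98 ± 0.61 SE, adjusted p = 0.0091). Leaving out mock replicate 3 or MeJA replicate 2 left 3 of the 5. Type 2C protein phosphatases, several of which restrain abscisic acid signalling, had 9 of 11 members raised and none lowered, all by less than 1 on the log2 scale, and 3 to 5 of them were called without mock replicate 1, mock replicate 2 or MeJA replicate 2.

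Among transcription factors, most named NAC proteins rose, with 7 of 9 higher, 1 lower and a median log2 fold change of 1.60. Of the calls 6 were made whichever Criollo library was left out. The study had itself called 8 of the 9 in Criollo, so the share is no independent evidence. Jasmonic acid 2 (Solyc12g013620), a NAC factor named for its induction by jasmonate, had 17.4, 41.6 and 22.5 TPM under MeJA, against 8.34, 5.12 and 5.66 TPM under mock (log2 fold change 2.24 ± 0.36 SE, adjusted p = 0.0013). Solyc04g009440 had 16.6, 15.8 and 14.8 TPM under MeJA, against 1.46, 1.45 and 2.04 TPM under mock (log2 fold change 3.37 ± 0.44 SE, adjusted p = 0.00019). The most abundant, Solyc11g017470, had 99.8, 107 and 90.7 TPM under MeJA, against 36.2, 35 and 37.9 TPM under mock (log2 fold change 1.60 ± 0.15 SE, adjusted p = 5.8e-06). None of the 3 overlapped between groups. The lowered one was NAC 10 (Solyc02g093420, log2 fold change -1.05 ± 0.26 SE, adjusted p = 0.029), whose call was lost whichever Criollo library was left out. Ethylene response factors had 9 of 15 tested members raised and none lowered, with a median of 1.17, and the count fell to 2 when mock replicate 2 was left out, 3 for MeJA replicate 2, 4 for mock replicate 1 and 5 for mock replicate 3. Pti4 (Solyc05g052050), which binds the GCC box of defence genes, had 9.9, 15.5 and 9.86 TPM under MeJA, against 2.17, 1.63 and 1.14 TPM under mock (log2 fold change 2.95 ± 0.54 SE, adjusted p = 0.0043). Solyc04g071770 had 45.2, 57.1 and 35.3 TPM under MeJA, against 11.2, 9.28 and 11.5 TPM under mock (log2 fold change 2.23 ± 0.21 SE, adjusted p = 7.9e-06). WRKY factors had 5 of 13 members raised and none lowered, where 30.6% of all named genes were called. Their median was 1.21 with all 13 fold changes positive, and 3 were called without mock replicate 1 or mock replicate 2. Among those raised, WRKY 16 (Solyc02g032950), WRKY 53 (Solyc08g008280) and WRKY 78 (Solyc07g055280) changed by 1.49 ± 0.29, 2.93 ± 0.66 and 1.00 ± 0.23 SE on the log2 scale. WRKY 75 (Solyc05g015850) and WRKY 54 (Solyc08g082110) had larger fitted changes, 3.65 and 3.94, and did not pass (adjusted p = 0.078 and 0.12).

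Most named enzymes of sterol synthesis rose. Sterols are membrane lipids made from squalene, and in tomato they are also the starting material of steroidal glycoalkaloids, bitter defence compounds. Of 16 annotated enzymes of the mevalonate, squalene and sterol pathway 13 rose and none fell, with a median log2 fold change of 0.80, and 11 were called whichever Criollo library was left out. Of all genes tested 3.19% were raised. The study had itself called 14 of the 16 in Criollo, so the share is no independent evidence. At the head of the pathway, HMG-CoA synthase (Solyc08g007790) had 26.6, 26.2 and 30.7 TPM under MeJA, against 11.5, 11.8 and 11.4 TPM under mock (log2 fold change 1.41 ± 0.19 SE, adjusted p = 0.0002). Squalene synthase (Solyc01g110290) and cycloartenol synthase 1 (Solyc04g070980) rose by 0.91 ± 0.11 and 0.82 ± 0.14 SE on the log2 scale. The demethylating methylsterol monooxygenases named next and a sterol desaturase changed by more. Methylsterol monooxygenase 1-2 (Solyc01g091320) had 36.9, 16.8 and 35.2 TPM under MeJA, against 2.64, 2.96 and 1.55 TPM under mock (log2 fold change 3.79 ± 0.39 SE, adjusted p = 1.8e-05). Methylsterol monooxygenase 2-1 (Solyc06g005750) had 93.9, 59.2 and 90.1 TPM under MeJA, against 24, 32.4 and 19.3 TPM under mock (log2 fold change 1.81 ± 0.27 SE, adjusted p = 0.00058). Delta(7)-sterol-C5(6)-desaturase (Solyc02g086180) had 337, 244 and 269.9 TPM under MeJA, against 63.5, 56.5 and 67.7 TPM under mock (log2 fold change 2.32 ± 0.21 SE, adjusted p = 3.9e-06). In these 3 genes every MeJA library lay above every mock library. The 3 that did not pass were mevalonate kinase (Solyc01g098840, 0.10 ± 0.11 SE), a squalene epoxidase (Solyc02g063523, 0.36 ± 0.52 SE) and sterol 22-desaturase (Solyc02g070580, -0.52 ± 0.17 SE). The summed level of the 16 enzymes was 1227, 977 and 1161 TPM under MeJA and 572, 579 and 567 TPM under mock.

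A stretch of neighbouring genes on chromosome 7, Solyc07g043390 to Solyc07g043500, held several raised genes. It holds 12 genes of the table, of which 7 passed the filter on low counts and 6 rose, including the abundant dioxygenase 2 already described. Of all genes tested 3.19% were raised. Both ends of the stretch are raised genes, and the study had itself called the 6 in Criollo. The count is therefore no independent evidence that the stretch responds as a unit. A gene annotated as cellulose synthase, Solyc07g043390, had 223, 109 and 238 TPM under MeJA, against 51.9, 58.1 and 46.9 TPM under mock (log2 fold change 2.01 ± 0.34 SE, adjusted p = 0.0021). The cytochrome P450 Solyc07g043460 had 114, 69.3 and 138 TPM under MeJA, against 48.5, 57.2 and 43.9 TPM under mock (log2 fold change 1.25 ± 0.19 SE, adjusted p = 0.00086). The glycosyltransferases Solyc07g043410, Solyc07g043480 and Solyc07g043500 rose by 1.83 ± 0.40, 0.93 ± 0.16 and 1.31 ± 0.31 SE on the log2 scale. The seventh gene, Solyc07g043490, which carries no annotation here, stood at 111 ± 52.5 TPM under MeJA and 54.1 ± 15.3 TPM under mock (SD, n = 3 each) and did not pass (adjusted p = 0.075). Genes for steroidal glycoalkaloid synthesis are known to lie clustered on this chromosome in tomato, though the annotation used here does not name these genes so.

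Cytochromes P450, which oxidise hormones and secondary metabolites, had 24 of 44 annotated members raised and 2 lowered, with a median log2 fold change of 0.79. The 2 neighbouring genes annotated as geraniol 8-hydroxylase both rose. Solyc02g090350 had 4.46, 2.79 and 3.29 TPM under MeJA and 0.072, 0.0355 and 0 TPM under mock (109-fold higher, 95% counting interval 37 to 532, adjusted p = 2.5e-07). Solyc02g090340 had 1.24, 0.802 and 1.37 TPM under MeJA and 0, 0 and 0 TPM under mock (at least 30.6-fold higher, adjusted p = 0.0004). Solyc04g078340, which was measurable under mock, had 3.53, 2.87 and 2.29 TPM under MeJA, against 0.351, 0.172 and 0.454 TPM under mock (log2 fold change 3.29 ± 0.30 SE, adjusted p = 5.1e-06). Of the 26 calls in this family 15 were made whichever Criollo library was left out. Glycosyltransferases, which attach sugars to such products, had 17 of 33 members raised and 2 lowered, with a median of 0.95, and 7 to 11 raised ones were called when mock replicate 1, 2 or 3 or MeJA replicate 2 was left out. Solyc08g006410 had 0.845, 2.76 and 0.715 TPM under MeJA, against 0.0512, 0.126 and 0 TPM under mock (log2 fold change 4.58 ± 0.89 SE, adjusted p = 0.0064). Solyc01g105360 had 11.3, 7.73 and 13.5 TPM under MeJA, against 0.0861, 0.422 and 0.129 TPM under mock (log2 fold change 5.79 ± 0.53 SE, adjusted p = 4.7e-06).

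Acyl-transferases of the HXXXD type, which build esters and amides of phenolic acids among other products, had 11 of 13 members raised and none lowered, with a median log2 fold change of 2.45. The study had itself called 12 of the 13 in Criollo, so the share is no independent evidence. In a run of 3 on chromosome 5 each gene rose, and the study had itself called all 3 in Criollo. Solyc05g052650 had 14.7, 26 and 8.83 TPM under MeJA and 1.57, 2.98 and 4.88 TPM under mock (log2 fold change 2.55 ± 0.43 SE, adjusted p = 0.0021). Solyc05g052670 had 90.0, 123 and 93.5 TPM under MeJA and 14.8, 15.7 and 17.7 TPM under mock (log2 fold change 2.79 ± 0.18 SE, adjusted p = 8.5e-08). Solyc05g052680 had 33, 49.5 and 24 TPM under MeJA and 7.28, 5.13 and 8.86 TPM under mock (log2 fold change 2.45 ± 0.31 SE, adjusted p = 0.00014). On chromosome 12, Solyc12g096770 had 9.08, 8.33 and 14.8 TPM under MeJA, against 0.189, 0.37 and 0.0627 TPM under mock (log2 fold change 5.80 ± 0.48 SE, adjusted p = 1.5e-06), and its neighbours Solyc12g096780, an alcohol dehydrogenase, and Solyc12g096790 had no mock reads (at least 22-fold higher, adjusted p = 0.043, and at least 18.1-fold higher, adjusted p = 0.0025). For all of these the groups did not overlap. Glutathione S-transferases, which detoxify reactive compounds, had 5 of 14 tested members raised and none lowered, and Solyc07g056480 had 157, 221 and 117 TPM under MeJA, against 30.7, 24.2 and 34.1 TPM under mock (log2 fold change 2.65 ± 0.38 SE, adjusted p = 0.00047). Without Micro-Tom mock replicate 3 this list had 9 raised members. Of all named genes 30.6% were called.

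Annexins, proteins that bind membranes when calcium rises, had 3 of 4 named members raised, where 3.19% of all genes tested were raised. The study had itself called all 4 in Criollo, so the share is no independent evidence. The 3 raised lie in a cluster on chromosome 1 with 4 genes tested, and the other annexin, outside it, did not pass. Annexin 5 (Solyc01g097520) had 33.7, 62.3 and 28.6 TPM under MeJA, against 6.7, 7.02 and 6.43 TPM under mock (log2 fold change 2.81 ± 0.40 SE, adjusted p = 0.00046). Annexin 3 (Solyc01g097510) had 9.25, 12.7 and 7.96 TPM under MeJA, against 2.8, 1.84 and 2.16 TPM under mock (log2 fold change 2.3 ± 0.30 SE, adjusted p = 0.00018). Annexin 6 (Solyc01g097550) had 1.17, 1.78 and 0.878 TPM under MeJA and 0, 0.0665 and 0 TPM under mock (64-fold higher, 95% counting interval 11.1 to 2569, adjusted p = 0.0017). All 3 were called whichever Criollo library was left out. Some abundant enzymes stood outside the lists and were chosen after their values were seen. The peroxidase Solyc04g071890, of a class that crosslinks phenolics in walls, had 777, 842 and 765 TPM under MeJA, against 110.3, 139.9 and 139 TPM under mock (log2 fold change 2.76 ± 0.21 SE, adjusted p = 5.6e-07). Chalcone synthase (Solyc05g053170), the entry enzyme of flavonoid synthesis, had 49.3, 36 and 41.4 TPM under MeJA, against 5.07, 3.34 and 4.51 TPM under mock (log2 fold change 3.41 ± 0.62 SE, adjusted p = 0.0038). The neighbours Solyc07g016160 and Solyc07g016170, annotated as L-arabinokinase, which recovers arabinose from broken down wall polymers, both rose. Solyc07g016160 had 61.5, 67.5 and 66.6 TPM under MeJA and 7.87, 4.75 and 6.8 TPM under mock (log2 fold change 3.47 ± 0.43 SE, adjusted p = 0.00013). Solyc07g016170 had 88, 112 and 81.1 TPM under MeJA and 7.8, 7.39 and 7.33 TPM under mock (log2 fold change 3.78 ± 0.21 SE, adjusted p = 1.8e-08). The groups did not overlap in any of the 4. In polyamine metabolism, S-adenosylmethionine decarboxylase (Solyc05g010420) had 1174, 1075 and 1179.8 TPM under MeJA, against 694, 734 and 607 TPM under mock (log2 fold change 0.90 ± 0.12 SE, adjusted p = 0.00019), and polyamine oxidase 3 (Solyc07g043590) rose by 1.21 ± 0.16 SE on the log2 scale (adjusted p = 0.00019).

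Genes tied to abscisic acid, the hormone of seed maturation and dormancy, were also chosen after their values were seen. 9-cis-epoxycarotenoid dioxygenase (Solyc05g053530), the rate-limiting enzyme of abscisic acid synthesis, had 6.37, 12 and 5.61 TPM under MeJA, against 0.787, 0.655 and 0.477 TPM under mock (log2 fold change 3.78 ± 0.45 SE, adjusted p = 7.1e-05). Flacca (Solyc07g066480), the cofactor sulfurase that the last step of the synthesis needs, had 26.1, 28.6 and 19.1 TPM under MeJA, against 16.2, 14.1 and 14.5 TPM under mock (log2 fold change 0.88 ± 0.18 SE, adjusted p = 0.0087). Aldehyde oxidase 1 (Solyc11g071620), of the enzyme type that carries out that step, had 1.16, 0.795 and 1.19 TPM under MeJA, against 3.12, 3.25 and 2.9 TPM under mock (log2 fold change -1.41 ± 0.38 SE, adjusted p = 0.047). Members of the pathway thus passed in both directions. The ABI5-like factor 7 (Solyc01g108080), of the bZIP type that acts for abscisic acid in seeds, rose by 0.80 ± 0.18 SE, and the abundant bZIP factor Solyc10g083380 had 835, 1205 and 672 TPM under MeJA, against 546, 483 and 389 TPM under mock (log2 fold change 1.10 ± 0.23 SE, adjusted p = 0.012). Proteins known to accumulate in maturing or dehydrating tissue rose too. Tonoplast intrinsic protein 3.1 (Solyc06g072130) averaged 369 ± 132 TPM under MeJA and 216 ± 26.1 TPM under mock (SD, n = 3 each, log2 fold change 0.92 ± 0.22 SE, adjusted p = 0.025). The low-temperature-induced 65 kDa protein Solyc01g009660 averaged 342 ± 101 TPM under MeJA and 180.2 ± 19.1 TPM under mock (log2 fold change 1.03 ± 0.25 SE, adjusted p = 0.03). A raffinose synthase, Solyc03g058970, which makes protective sugars, averaged 10.3 ± 2.27 TPM under MeJA and 4.46 ± 0.756 TPM under mock (log2 fold change 1.34 ± 0.19 SE, adjusted p = 0.0004). The glyoxylate cycle enzymes that turn seed oil into sugar during germination rose as well. Isocitrate lyase (Solyc07g052480) had 588, 754 and 638 TPM under MeJA and 395, 402 and 354 TPM under mock (log2 fold change 0.94 ± 0.14 SE, adjusted p = 0.00058). Malate synthase (Solyc03g111140) had 999.8, 1099.6 and 977 TPM under MeJA and 822, 755 and 799 TPM under mock (log2 fold change 0.52 ± 0.10 SE, adjusted p = 0.0075).

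Seed maturation proteins were higher in MeJA-primed seeds, and the number of calls rested on single libraries. Of 27 tested LEA proteins and dehydrins 9 rose and 1 fell, with a median log2 fold change of 0.71, and of 22 storage and oil body proteins 12 rose and none fell, with a median of 0.84. Of all genes tested 3.19% were raised, and of named genes 30.6% were called. The summed level of the 49 genes was 6.63, 8.80 and 5.91% of all TPM in the MeJA libraries and 4.28, 3.65 and 4.16% in the mock libraries, which did not overlap. The counts of raised LEA and of raised storage members fell to 2 and 3 without MeJA replicate 2 and to 2 and 3 without mock replicate 2. Leaving out mock replicate 1 gave 2 and 7, mock replicate 3 gave 4 and 5, and Micro-Tom mock replicate 3 gave 17 raised LEA members. Over the alternatives run, the list medians stayed positive, from 0.52 to 0.83 for the LEA list and from 0.56 to 0.94 for the storage list. Oleosin Solyc06g034040 had 2371, 3584 and 2145 TPM under MeJA, against 1486, 1405 and 1345 TPM under mock (log2 fold change 1.05 ± 0.23 SE, adjusted p = 0.014). Vicilin Solyc09g082340 had 1895, 4191 and 2329 TPM under MeJA, against 1538, 979 and 1376 TPM under mock (log2 fold change 1.27 ± 0.31 SE, adjusted p = 0.03), and 1-Cys peroxiredoxin Solyc03g096040, an antioxidant of dry seeds, had 1055, 1269.6 and 967 TPM under MeJA, against 526, 489 and 478 TPM under mock (log2 fold change 1.29 ± 0.19 SE, adjusted p = 0.00057). In the vicilin gene MeJA replicate 2 stood well above the other libraries, while the peroxiredoxin was even within each group. The vicilin-like antimicrobial peptide gene Solyc09g065470 had 560.4, 841 and 541 TPM under MeJA, against 309.8, 284 and 273 TPM under mock (log2 fold change 1.30 ± 0.25 SE, adjusted p = 0.0063). A caleosin, Solyc01g005400, had 14.9, 27.1 and 14.8 TPM under MeJA and 6.43, 6.78 and 6.37 TPM under mock (log2 fold change 1.71 ± 0.25 SE, adjusted p = 0.00049). A Lea5 protein, Solyc06g009140, had 48.4, 116 and 88.5 TPM under MeJA and 15.8, 13.1 and 25.2 TPM under mock (log2 fold change 2.37 ± 0.61 SE, adjusted p = 0.037). The lowered LEA gene was Solyc08g066590 (log2 fold change -2.18 ± 0.45 SE, adjusted p = 0.013).

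Cell division genes formed a large lowered group. The 4 lists, of cyclins and B-type cyclin-dependent kinases, kinesins, proteins of microtubules, spindle and cell plate, and proteins of DNA replication and chromatid cohesion, together held 72 genes tested, of which 43 fell and none rose, against 1.22% lowered of all genes tested. Their median log2 fold change was -1.07, and 67 of the 72 fold changes were negative. Many of the 72 carry a name because the study had itself called them, so the share is no independent evidence. The levels were low, and the number of calls rested on single libraries, with 11 lowered when MeJA replicate 2 was left out, 12 for mock replicate 2, 18 for MeJA replicate 1 and 24 for mock replicate 1, and 9 called whichever Criollo library was left out. The median of the 72 stayed between -1.22 and -0.69 over the alternatives run. The summed level of the 72 did not separate the groups, at 1317, 1323 and 1539 TPM under MeJA and 1581, 1789.8 and 1458 TPM under mock. Some abundant members, tubulin genes among them, did not pass the test.

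Mitotic cyclins, which drive entry into mitosis, were the most lowered cyclins. Cyclin B1_4 (Solyc01g009040) had 0.316, 0.417 and 0.409 TPM under MeJA, against 2.38, 2.38 and 1.61 TPM under mock (log2 fold change -2.30 ± 0.56 SE, adjusted p = 0.027). Cyclin B1_2 (Solyc10g080950) had 0.23, 0.266 and 0.26 TPM under MeJA, against 1.18, 1.56 and 1.37 TPM under mock (log2 fold change -2.28 ± 0.47 SE, adjusted p = 0.01). Cyclin B2_7 (Solyc03g032190) had 0.141, 0.496 and 0.446 TPM under MeJA, against 1.87, 2.1 and 1.62 TPM under mock (log2 fold change -2.20 ± 0.48 SE, adjusted p = 0.014). In the 3 cyclins each MeJA library lay below each mock library. Their plant-specific partners fell as well. The B2-type cyclin-dependent kinase Solyc04g082840 had 4.53, 3.66 and 3.97 TPM under MeJA, against 14.1, 12.7 and 13.4 TPM under mock (log2 fold change -1.58 ± 0.16 SE, adjusted p = 1.6e-05). The B1-type kinase Solyc10g074720 had 1.17, 1.73 and 2.06 TPM under MeJA, against 4.93, 5.02 and 4.86 TPM under mock (log2 fold change -1.42 ± 0.30 SE, adjusted p = 0.013). The B2-type kinase was the most abundant of these genes, and its call was made whichever Criollo library was left out. In the whole list 10 of 16 members fell, and 2 were lowered without mock replicate 2, MeJA replicate 1 or MeJA replicate 2 and 6 without mock replicate 1. Cyclins D1_1 (Solyc05g006050) and D5_1 (Solyc04g076040), which act earlier in the cycle, did not pass. Cyclin D1_1 stood at 47.9 ± 6.25 TPM under MeJA and 59.9 ± 5.26 TPM under mock and cyclin D5_1 at 40.7 ± 7.29 TPM under MeJA and 62.6 ± 5.52 TPM under mock (SD, n = 3 each). Also not called were the kinase inhibitors Solyc12g098310 and Solyc06g076310, whose log2 fold changes were 0.28 ± 0.17 and 0.52 ± 0.32 SE.

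Kinesins, motors that move along microtubules, had 13 of 22 members lowered and none raised, with a median log2 fold change of -1.17, and 3 were lowered when MeJA replicate 2 or mock replicate 2 was left out, 5 for MeJA replicate 1, 6 for mock replicate 1 and 8 for MeJA replicate 3. Phragmoplast orienting kinesin 1 (Solyc11g071730), which helps set the division plane, had 0.247, 0.196 and 0.38 TPM under MeJA, against 1.17, 1.39 and 0.995 TPM under mock (log2 fold change -1.95 ± 0.30 SE, adjusted p = 0.00098). The kinesin-related gene Solyc07g065210 had 0.167, 0.0909 and 0.287 TPM under MeJA, against 1.13, 1.31 and 0.868 TPM under mock (log2 fold change -2.44 ± 0.49 SE, adjusted p = 0.0089). NACK1 (Solyc07g042560), which acts in the expansion of the cell plate in tobacco, had 0.281, 0.0994 and 0.144 TPM under MeJA and 0.568, 0.593 and 0.456 TPM under mock (log2 fold change -1.47 ± 0.38 SE, adjusted p = 0.038). The division machinery around them fell with similar size, with 13 of 23 members of the spindle and cell plate list lowered and a median of -1.33, and 4 lowered without MeJA replicate 2, 5 when mock replicate 2 was left out, 6 for mock replicate 1 and 7 for MeJA replicate 1. The microtubule-associated protein MAP65-3 (Solyc03g007130), which crosslinks microtubules at the cell plate, had 0.127, 0.0213 and 0.206 TPM under MeJA, against 0.89, 1.38 and 0.723 TPM under mock (log2 fold change -2.89 ± 0.56 SE, adjusted p = 0.0065). KNOLLE (Solyc06g053760), the syntaxin that fuses vesicles into the cell plate, had 0.172, 0.303 and 0.334 TPM under MeJA, against 1.38, 2.75 and 1.44 TPM under mock (log2 fold change -2.61 ± 0.66 SE, adjusted p = 0.033). An alpha tubulin gene, Solyc02g087880, had 2.33, 2.59 and 2.78 TPM under MeJA, against 10.0, 12.2 and 7.49 TPM under mock (log2 fold change -1.80 ± 0.27 SE, adjusted p = 0.00058), and CDC20.2 (Solyc06g072830), a cofactor of the complex that ends mitosis, had 2.14, 1.82 and 2.03 TPM under MeJA, against 5.72, 6.46 and 4.34 TPM under mock (log2 fold change -1.33 ± 0.17 SE, adjusted p = 0.00019). In these genes no MeJA library reached a mock library. The more abundant alpha tubulin Solyc04g077020 (295 ± 65.6 TPM under MeJA and 409 ± 18.4 TPM under mock, SD, n = 3 each) did not pass (adjusted p = 0.7).

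**Figure D3:**
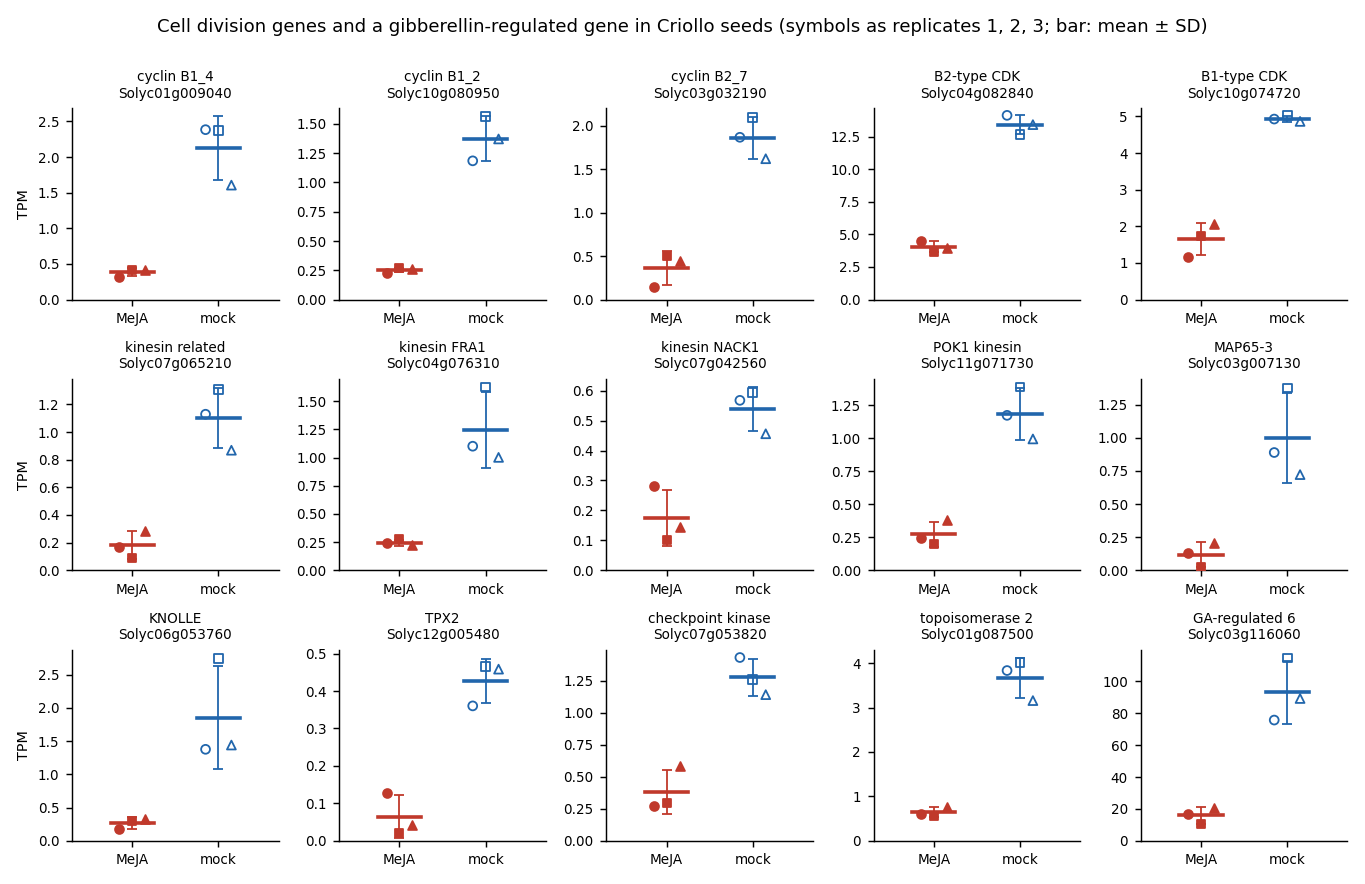
Levels in TPM, from a zero baseline, of 14 cell division genes and the gibberellin-regulated gene Solyc03g116060 in the 3 MeJA-primed (left, filled) and 3 mock-primed (right, open) Criollo libraries, with mean and SD bars and replicates 1, 2 and 3 as circle, square and triangle. In every panel all MeJA libraries lie below all mock libraries, and mock replicate 2 is often the highest.

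Replication and cohesion genes had 7 of 11 members lowered and none raised, with a median log2 fold change of -0.94, and 2 were lowered without MeJA replicate 2 or mock replicate 2 and 4 without MeJA replicate 1. Their summed level did not fall, at 468, 512 and 523 TPM under MeJA and 423, 508 and 336 TPM under mock. In 1 member every MeJA library lay above every mock library. DNA topoisomerase 2 (Solyc01g087500), which untangles chromosomes, had 0.601, 0.554 and 0.772 TPM under MeJA, against 3.83, 4.02 and 3.16 TPM under mock (log2 fold change -2.36 ± 0.41 SE, adjusted p = 0.0026). Subunit 5 of the origin recognition complex (Solyc01g094760) had 2.72, 2.34 and 3.06 TPM under MeJA, against 6.74, 6.66 and 4.77 TPM under mock (log2 fold change -1.00 ± 0.19 SE, adjusted p = 0.0064). Both were called whichever Criollo library was left out. The proliferating cell nuclear antigen (Solyc06g076660), the sliding clamp of replication, stood at 35.1 ± 9.75 TPM under MeJA and 59.8 ± 11.5 TPM under mock (SD, n = 3 each) and did not pass (adjusted p = 0.18). Of 6 core histones none passed, and 5 had negative fold changes with a list median of -0.61. By the rule for the largest changes, the high mobility group protein HMGB6 (Solyc08g082070), a chromatin protein, fell as well, with 0.683, 0.678 and 0.30 TPM under MeJA, against 3.22, 4.49 and 3.1 TPM under mock (log2 fold change -2.53 ± 0.32 SE, adjusted p = 0.00015).

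Among the other lowered genes named by the rule were genes of growth and transport. Gibberellin-regulated protein 6 (Solyc03g116060) had 16.8, 10.3 and 20.8 TPM under MeJA, against 75.8, 115 and 89.3 TPM under mock (log2 fold change -2.39 ± 0.58 SE, adjusted p = 0.027). The potassium channel AKT2 (Solyc10g024360), known from phloem, had 0.0679, 0.091 and 0.198 TPM under MeJA, against 1.23, 1.33 and 1.12 TPM under mock (log2 fold change -3.17 ± 0.75 SE, adjusted p = 0.023). An oligopeptide transporter, Solyc01g150169, had 0.0663, 0.117 and 0.161 TPM under MeJA, against 1.66, 1.48 and 0.526 TPM under mock (log2 fold change -3.23 ± 0.42 SE, adjusted p = 0.00017). For these 3 genes the groups did not overlap, which was a condition of the rule for the largest changes. After the values were seen, 3 further lowered genes were added. A SWEET sugar transporter, Solyc04g064610, averaged 2.03 ± 0.468 TPM under MeJA and 6.05 ± 0.886 TPM under mock (SD, n = 3 each, log2 fold change -1.40 ± 0.34 SE, adjusted p = 0.026). Sugar transporter protein 1 (Solyc02g079220) averaged 3.03 ± 0.727 TPM under MeJA and 8.04 ± 0.905 TPM under mock (log2 fold change -1.24 ± 0.33 SE, adjusted p = 0.046). Asparagine synthetase 1 (Solyc06g007180), which makes the main nitrogen transport compound, averaged 3.88 ± 0.441 TPM under MeJA and 10.8 ± 1.47 TPM under mock (log2 fold change -1.34 ± 0.20 SE, adjusted p = 0.00082), and of the 3 it alone was called whichever Criollo library was left out. Solyc01g106200, which carries no annotation here, was also chosen after its values were seen and had the lowest fitted change among the lowered genes, with 0, 0 and 0.615 TPM under MeJA, against 4.01, 5.9 and 2.14 TPM under mock (log2 fold change -4.02 ± 0.84 SE, adjusted p = 0.014).

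Wall enzymes went both ways, with 7 of 34 tested members raised and 11 lowered and a median log2 fold change of -0.50. Their summed level was nonetheless higher under MeJA, at 1674, 1547 and 1608 TPM under MeJA and 1308, 1240 and 1370 TPM under mock, with no overlap. Lowered was an abscission polygalacturonase (Solyc12g096750), which cuts pectin, with 0.286, 0.226 and 0.557 TPM under MeJA, against 3.62, 4.0 and 1.99 TPM under mock (log2 fold change -2.97 ± 0.73 SE, adjusted p = 0.03). A gene of the pectin methylesterase inhibitor family also fell (Solyc07g042390, log2 fold change -3.03 ± 0.59 SE, adjusted p = 0.0064), as did the cellulose synthase Solyc09g075550 (log2 fold change -2.59 ± 0.53 SE, adjusted p = 0.0092) and an arabinogalactan protein (Solyc07g053640, log2 fold change -1.50 ± 0.23 SE, adjusted p = 0.00094). Raised beside the pectinesterases were the cellulose synthase Solyc12g015770 (log2 fold change 1.19 ± 0.11 SE, adjusted p = 4.7e-06) and the abundant xyloglucan endotransglucosylase Solyc07g006870 (798 ± 97.5 TPM under MeJA and 499.7 ± 93.7 TPM under mock, SD, n = 3 each, log2 fold change 0.85 ± 0.18 SE, adjusted p = 0.013). The lowered members numbered 2 without MeJA replicate 1, MeJA replicate 2 or mock replicate 2 and 3 without mock replicate 1. Receptor-like kinases, which sense peptides and wall fragments at the cell surface, had 13 of 68 members raised and 20 lowered, with a median of -0.50. The counts rested on single libraries here too, with 5 raised and 1 lowered without MeJA replicate 2, 4 raised and 2 lowered without MeJA replicate 1, mock replicate 1 or mock replicate 2, 6 raised and 8 lowered without mock replicate 3, 12 lowered without MeJA replicate 3 and 37 lowered without Micro-Tom mock replicate 3. Solyc04g081080 had 0.0158, 0.0159 and 0.0154 TPM under MeJA, against 0.294, 0.371 and 0.225 TPM under mock (17.2-fold lower, 95% counting interval 5.58 to 85.9, adjusted p = 0.00031). On the raised side Solyc03g006770 had 1.51, 1.75 and 1.62 TPM under MeJA, against 0.535, 0.394 and 0.483 TPM under mock (log2 fold change 1.94 ± 0.30 SE, adjusted p = 0.001). Of 4 tested photosystem and chlorophyll-binding genes 1 fell, a chlorophyll a-b binding protein, Solyc02g070940, with 1.4, 0.655 and 1.15 TPM under MeJA, against 4.63, 5.15 and 3.62 TPM under mock (log2 fold change -1.95 ± 0.45 SE, adjusted p = 0.02), and the call was lost without MeJA replicate 2, mock replicate 1 or mock replicate 2. The 2 chlorophyll a-b binding genes together summed to 2.75, 2.05 and 2.45 TPM under MeJA and 6.46, 8.36 and 6.30 TPM under mock. Whether the share of green or growing tissue in the seed differed between the groups was not tested.

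**Figure D4:**
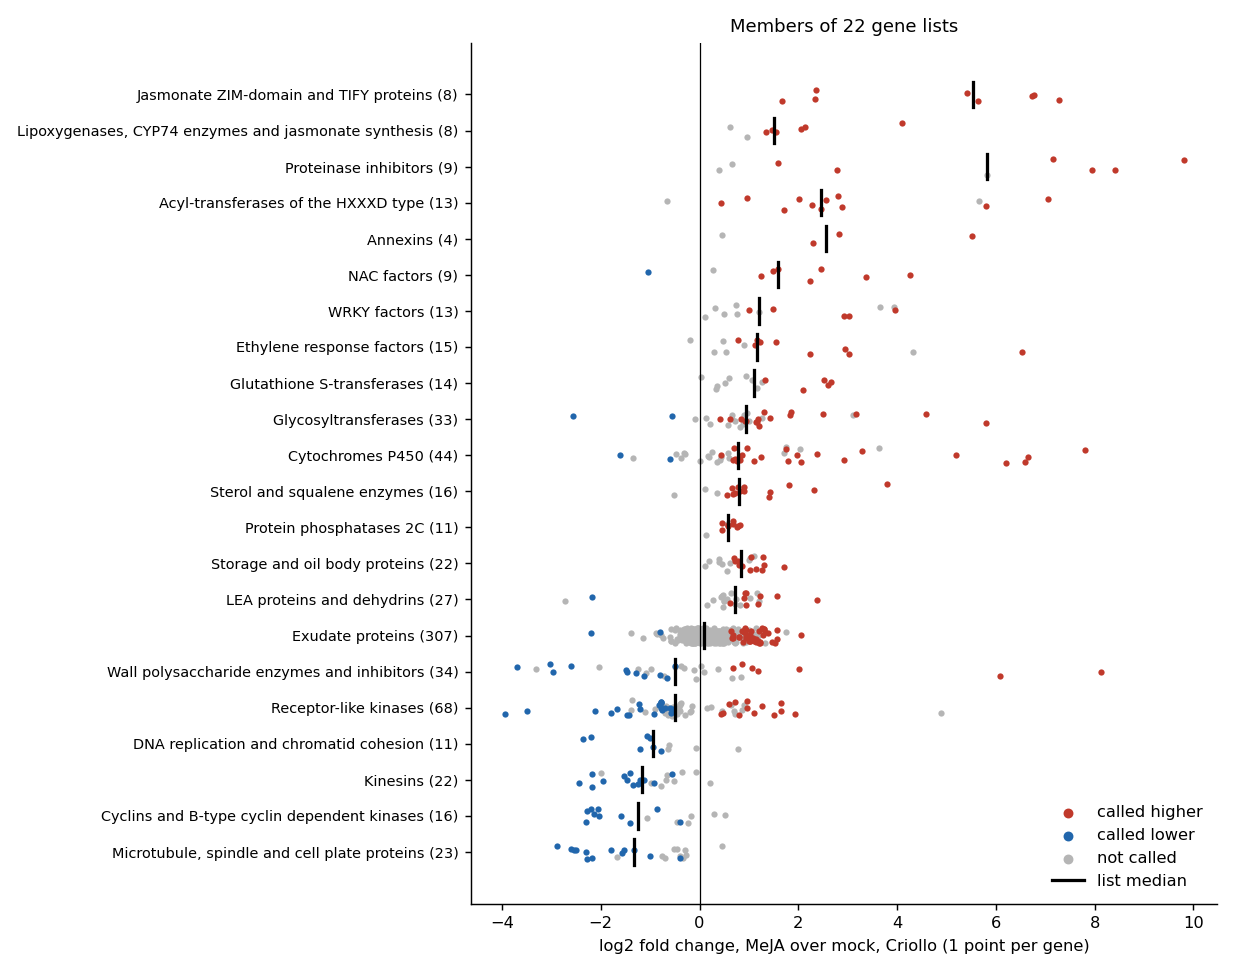
Members of 22 gene lists by their log2 fold change of MeJA over mock in Criollo, with the number tested in brackets, 1 point per gene, red for called higher, blue for called lower and grey for not called, and a black bar at each list's median. Plotted jasmonate, defence and metabolic lists lie to the right of 0 with medians up to 5.82, seed protein lists at 0.71 and 0.84, and the cell division lists to the left at -0.94 to -1.33. With members lacking mock reads at their bound, the proteinase inhibitor median of 5.82 is 2.90 and the JAZ and TIFY median of 5.53 is 3.45. Pathogenesis-related proteins and defensins are among the lists not plotted.

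The proteins that the study detected in exudates of MeJA-primed seeds give a list that does not rest on transcript levels. The exudates pooled the 3 cultivars, so the list is not specific to Criollo. Of 323 such proteins 307 had a tested transcript, of which 41 rose (3.19% of all genes tested were raised) and 2 fell, with a median log2 fold change of 0.09 that was -0.07 at its lowest over the alternatives run. Transcripts of exuded proteins were thus mostly not changed beyond the test, and 264 of the 307 did not pass. The number raised was 16 when MeJA replicate 2 or mock replicate 2 was left out, 24 for mock replicate 1, 23 for mock replicate 3 and 76 for Micro-Tom mock replicate 3. Those raised included CYP74C3 and allene oxide cyclase of the jasmonate list. A 4-coumarate-CoA ligase (Solyc03g111170), which activates phenolic acids, had 56.9, 48.7 and 54.5 TPM under MeJA, against 21.4, 22.6 and 16.8 TPM under mock (log2 fold change 1.53 ± 0.19 SE, adjusted p = 9.7e-05). A universal stress protein rose as well (Solyc01g057000, log2 fold change 1.38 ± 0.32 SE, adjusted p = 0.021). The glutathione S-transferase Solyc10g084400 and the LEA protein D-34 Solyc09g082110 rose by 1.32 ± 0.35 and 1.57 ± 0.29 SE on the log2 scale. Lowered was the serine protease SBT3 (Solyc01g087850), with 0.0926, 0.0374 and 0.126 TPM under MeJA, against 0.367, 0.611 and 0.357 TPM under mock (log2 fold change -2.20 ± 0.46 SE, adjusted p = 0.01).

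The Criollo response was set against that of the other cultivars by testing the difference of the 2 log2 fold changes for each gene. The mock libraries differ between cultivars, so the responses share no controls, while both tests of a difference use the same 6 Criollo libraries. Against Stupicke 6 of 19914 genes (0.0301%) differed, and against Micro-Tom 19 (0.0954%). Of the 635 genes raised in Criollo 205 were also called higher in Stupicke, where 1.45% of all genes were, and 494 in Micro-Tom, where 7.98% were. Of the 242 lowered genes 9 were also called lower in Stupicke, where 0.11% of all genes were, and 99 in Micro-Tom, where 7.64% were. A gene called in 1 cultivar only is not thereby shown to differ, and the seed protein lists, with medians of 0.71 and 0.84 in Criollo, had medians of -0.11 and -0.04 among Stupicke responses and of 0.53 and 0.92 among those of Micro-Tom. The 72 cell division genes had a median of -1.07 in Criollo, where Stupicke had -0.13 and Micro-Tom -0.38. No gene of the cell division lists or of the 2 seed protein lists was among those whose response differed by the test.

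Compared with Stupicke, dioxygenase 2 (Solyc07g043420) rose by more in Criollo (difference 1.62 ± 0.25 SE, adjusted p = 0.038), with 1129, 1766 and 1288 TPM in MeJA-primed and 772, 829.8 and 889.5 TPM in mock-primed Stupicke seeds. Sterol C5-desaturase (Solyc02g086180) rose by more as well (difference 1.85 ± 0.28 SE, adjusted p = 0.038), with 92.2, 95.2 and 98.3 TPM in MeJA-primed and 56.1, 63.6 and 87.1 TPM in mock-primed Stupicke seeds. Squalene synthase (Solyc01g110290) rose by less in Criollo (difference -1.18 ± 0.16 SE, adjusted p = 0.017). It had 34.9, 33.9 and 40.4 TPM under MeJA and 20.8, 22.5 and 21 TPM under mock in Criollo, and 53.2, 62.4 and 59.2 TPM in MeJA-primed and 15.3, 15.5 and 10.9 TPM in mock-primed Stupicke seeds. The sterol genes therefore differed in both directions between the cultivars. The Rossmann-fold protein Solyc06g083480 also responded by more in Criollo than in Stupicke (difference 1.47 ± 0.17 SE, adjusted p = 0.0032).

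Compared with Micro-Tom, methylsterol monooxygenase 1-2 (Solyc01g091320) rose in Criollo by far more (difference 3.64 ± 0.53 SE, adjusted p = 0.016), with 3.62, 5.3 and 4.14 TPM in MeJA-primed and 3.11, 3.44 and 3.94 TPM in mock-primed Micro-Tom seeds. Emopamil-binding protein (Solyc06g082980), the sterol isomerase, also did (difference 1.13 ± 0.17 SE, adjusted p = 0.016), with 288, 222 and 269.6 TPM under MeJA and 153, 154 and 153 TPM under mock in Criollo and 245, 257 and 255 TPM in MeJA-primed and 273, 287 and 257 TPM in mock-primed Micro-Tom seeds. The protein kinase Solyc12g098910 rose in both, and by less in Criollo (difference -2.08 ± 0.26 SE, adjusted p = 0.012), with 11.7, 10.7 and 9.5 TPM under MeJA and 2.65, 2.59 and 1.61 TPM under mock in Criollo and 24.4, 20.7 and 18.4 TPM in MeJA-primed and 0.868, 0.982 and 0.787 TPM in mock-primed Micro-Tom seeds. In 15 of the 19 genes the log2 fold change was smaller in Criollo. One of them was Solyc01g105650, a dioxygenase of the 2OG and Fe(II) type, which had 0.325, 0.271 and 0.263 TPM under MeJA and 0.224, 0.501 and 0.218 TPM under mock in Criollo and 1.62, 1.58 and 1.97 TPM in MeJA-primed and 0, 0.0597 and 0 TPM in mock-primed Micro-Tom seeds (difference -6.05 ± 0.92 SE, adjusted p = 0.016), and it was chosen after its values were seen. The Micro-Tom mock libraries held 1 read of it, against 90 in the MeJA libraries (90.8-fold higher, 95% counting interval 15.9 to 3625), so the size of the fitted difference depends on the prior count and is no exact value. Cinnamyl alcohol dehydrogenase (Solyc11g011330), of monolignol synthesis, likewise had 127, 93.9 and 153 TPM under MeJA and 119, 153 and 84.1 TPM under mock in Criollo and 163, 130.5 and 101 TPM in MeJA-primed and 10.9, 12.8 and 6.99 TPM in mock-primed Micro-Tom seeds (difference -3.41 ± 0.54 SE, adjusted p = 0.021). These counts rested on single libraries. Genes that differed from Micro-Tom numbered 0 without Criollo mock replicate 2, 1 without Criollo MeJA replicate 1 or Micro-Tom MeJA replicate 1, 2 without Criollo mock replicate 1 or MeJA replicate 3, 4 without Micro-Tom mock replicate 1, 10 without Criollo MeJA replicate 2 and 12 without Stupicke MeJA replicate 2. Genes that differed from Stupicke numbered 1 without Criollo mock replicate 1, 2 or 3 or Stupicke MeJA replicate 3, 2 without Criollo MeJA replicate 1 or 3, Stupicke mock replicate 3 or Micro-Tom MeJA replicate 2, 3 without Stupicke mock replicate 1, Stupicke MeJA replicate 1 or Micro-Tom MeJA replicate 1 or 3, and 11 without Micro-Tom mock replicate 3.

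**Figure D5:**
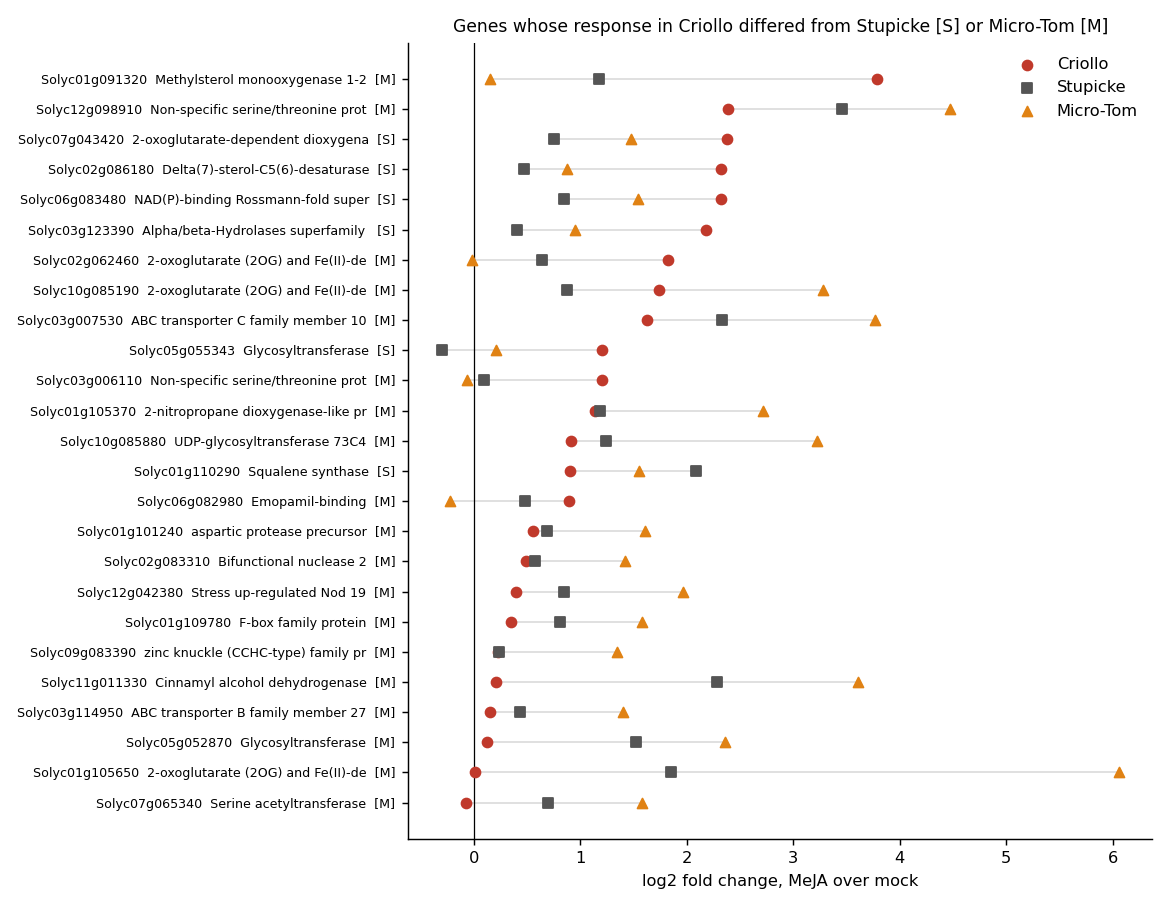
Log2 fold change of MeJA over mock in Criollo (red circle), Stupicke (grey square) and Micro-Tom (orange triangle) for the 25 genes whose Criollo response differed from Stupicke [S] or Micro-Tom [M] by the test. Of the 4 sterol genes, Solyc01g091320, Solyc02g086180 and Solyc06g082980 have their highest point in Criollo, though none differed from both other cultivars by the test, and squalene synthase (Solyc01g110290) has its lowest there (0.91, against 2.09 in Stupicke and 1.55 in Micro-Tom). The Micro-Tom point of Solyc01g105650 rests on 1 mock read, and 15 of the 19 genes marked [M] have a smaller one than in Micro-Tom.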

How the data were processed

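RNA-seq libraries (poly-A, paired reads of 100 bp) were made from seeds of 3 cultivars, each with 3 MeJA-primed and 3 mock-primed biological replicates of 30 seeds. The authors quantified reads with Salmon 1.2 against the SL4.0 genome with the ITAG4.0 annotation, and deposited estimated counts and TPM (transcripts relative to library total and length) per gene, both of which were used. Salmon shares reads between similar copies, so levels of close paralogues, such as neighbouring family members, are uncertain.

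Estimated counts were rounded to whole numbers and tested with edgeR 4.0.16 in R 4.3.3 (TMM scaling, its default filter on low counts, quasi-likelihood test, 6 group means over 18 libraries, Benjamini-Hochberg adjustment at 0.05). The shared fit was used so that responses could be compared between cultivars, by the difference of their log2 fold changes. TPM served for levels. Fold changes come from counts. A gene with no mock reads was given as a lower bound against 3 counts over the group, and one with 1 to 3 reads as a ratio with a 95% exact interval, which covers counting error only.

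Genes named were the 12 largest changes per direction among genes of at least 1 CPM whose groups did not overlap, the 8 most abundant changed genes per direction, up to 8 members of each list, members of neighbouring blocks and the 3 clearest response differences per cultivar, besides those chosen after their values were seen. Lists were word searches of the published annotation. The members and lists were chosen with earlier results of these data known. Alternatives were other size factors, other filters on low counts, DESeq2 1.42.0, only the cultivars compared, a replicate block, limma 3.58.1 on log2(TPM + 1) and log2(TPM + 0.1), a log2 fold change of at least 1 and each library left out. DESeq2 on the 6 Criollo libraries was added after seeing the data. The code was tested on simulated data. From the published tables only gene IDs and annotation were taken.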

Additional observations from a re-analysis of the deposited data

Results flagged for a closer look

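The response to MeJA differed between Criollo and another cultivar by edgeR's test of the difference for the following genes, each given as the log2 fold change in Criollo minus that in the other cultivar. Against Stupicke the difference was 1.62 (log2 fold change 2.37 in Criollo and 0.75 in Stupicke) for dioxygenase 2 (Solyc07g043420), 1.85 (log2 fold change 2.32 in Criollo and 0.47 in Stupicke) for the sterol C5-desaturase Solyc02g086180 and -1.18 (log2 fold change 0.91 in Criollo and 2.09 in Stupicke) for squalene synthase (Solyc01g110290). It was 1.78 (log2 fold change 2.18 in Criollo and 0.41 in Stupicke) for the alpha/beta-hydrolase Solyc03g123390, 1.50 (log2 fold change 1.2 in Criollo and -0.30 in Stupicke) for the glycosyltransferase Solyc05g055343 and 1.47 (log2 fold change 2.32 in Criollo and 0.85 in Stupicke) for the Rossmann-fold protein Solyc06g083480.

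Against Micro-Tom the response of 4 genes was larger in Criollo. The difference was 3.64 (log2 fold change 3.79 in Criollo and 0.15 in Micro-Tom) for methylsterol monooxygenase 1-2 (Solyc01g091320), 1.13 (log2 fold change 0.90 in Criollo and -0.23 in Micro-Tom) for the emopamil-binding protein Solyc06g082980, 1.84 (log2 fold change 1.82 in Criollo and -0.02 in Micro-Tom) for the dioxygenase Solyc02g062460 and 1.26 (log2 fold change 1.2 in Criollo and -0.06 in Micro-Tom) for the protein kinase Solyc03g006110. The response of 15 genes was smaller in Criollo. The dioxygenases Solyc01g105650 and Solyc10g085190 differed by -6.05 (log2 fold change 0.01 in Criollo and 6.05 in Micro-Tom, fitted over a single Micro-Tom mock read and so no exact value) and -1.54 (log2 fold change 1.74 in Criollo and 3.28 in Micro-Tom). Cinnamyl alcohol dehydrogenase (Solyc11g011330) differed by -3.41 (log2 fold change 0.20 in Criollo and 3.61 in Micro-Tom), and the glycosyltransferases Solyc05g052870 and Solyc10g085880 by -2.24 (log2 fold change 0.12 in Criollo and 2.36 in Micro-Tom) and -2.31 (log2 fold change 0.91 in Criollo and 3.22 in Micro-Tom). Among transporters, the ABC proteins Solyc03g007530 and Solyc03g114950 differed by -2.15 (log2 fold change 1.62 in Criollo and 3.77 in Micro-Tom) and -1.24 (log2 fold change 0.15 in Criollo and 1.40 in Micro-Tom). Of the rest, the differences were -2.08 for the protein kinase Solyc12g098910, -1.65 for serine acetyltransferase (Solyc07g065340), -1.57 for Solyc01g105370, like 2-nitropropane dioxygenase, and -1.57 for the Nod 19 protein Solyc12g042380. They were -1.23 for the F-box protein Solyc01g109780, -1.12 for the zinc knuckle protein Solyc09g083390, -1.05 for the aspartic protease Solyc01g101240 and -0.93 for bifunctional nuclease 2 (Solyc02g083310).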

How the results depend on the processing

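The directions held and the counts did not. Against 877 calls (635 raised, 242 lowered), DESeq2 gave 1376 (918 and 458) on all libraries and 2370 (1241 and 1129) on the 6 Criollo libraries, the fit on only the cultivars compared 1801 (997 and 804), limma on log2(TPM + 1) 408 raised and 461 lowered, limma on log2(TPM + 0.1) 567 (372 and 195), and a log2 fold change of at least 1 left 508 (350 and 158). The cause was not tested. Leaving out 1 library at a time gave 361 to 1812 calls (328 to 1157 raised, 33 to 655 lowered), 1 to 11 differences from Stupicke and 0 to 28 from Micro-Tom. Differences from Stupicke and Micro-Tom numbered 98 and 98 by DESeq2 and 40 and 111 by limma on log2(TPM + 1), and 29 from Micro-Tom with a pseudocount of 0.1. On the log2(TPM + 1) and log2(TPM + 0.1) scales the median of all genes was -0.12 and -0.14.

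Same-numbered MeJA and mock libraries had correlations of their deviations from the group means of -0.019, -0.25 and -0.23, and differently numbered ones of -0.061 to 0.28. With 3 libraries per group, deviations from the group mean cannot decide whether replicate numbers pair the samples. With the replicate block 522 genes passed (384 raised, 138 lowered), of which 471 were among the 877, the raised LEA and storage members numbered 2 and 3, and 0 genes differed from Stupicke and 0 from Micro-Tom by edgeR's test (1349 and 1657 at an unadjusted p under 0.05). Without Criollo mock replicate 2, 1388 genes had an unadjusted p under 0.05 for the difference from Micro-Tom, and 0 passed after adjustment.

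For the genes named in the text, 6280 gene and setting combinations kept direction and side of the threshold, 812 kept direction and missed the threshold and 25 newly passed it. In 7 combinations a gene not called in the main fit changed sign, and no called gene changed sign. Depth was even between libraries, and scarce genes such as those of cell division rest on few reads. The spread was estimated over all 18 libraries, and the biological coefficient of variation was 0.123 for Criollo, 0.157 for Stupicke and 0.261 for Micro-Tom.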
